A study of Mus musculus with 22 samples.

Results

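Hells encodes Lsh, a chromatin remodeller of the SNF2 family, and its RNA was followed here in primary mouse embryonic fibroblasts (MEFs) together with that of 9 genes that act with it in DNA methylation. The 10 genes were taken by symbol and are Hells, Cdca7, Zbtb24, Dnmt1, Dnmt3a, Dnmt3b, Uhrf1, Tet1, Tet2 and Tet3. All 10 had a row in each of the 4 RNA libraries, among 16271 genes that did. The libraries came from C57BL/6 MEFs that lack Lsh (Lsh-/-, KO) and from MEFs that carry it (Lsh+/+, WT), with 2 libraries per genotype, called KO1, KO2, WT1 and WT2 after genotype and replicate number. The fibroblasts were grown from the bodies of embryonic day 13.5 embryos and used at passage 3 to 4. The labels give neither the deleted part of Hells nor the litter, sex or number of embryos behind a library, and call the libraries biological replicates. The other 18 samples of the series (input, RNA polymerase II, H3K27me3 and H3K4me3) are not analysed here.

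DNA methylation is written on CpG sites by the methyltransferases Dnmt3a and Dnmt3b and copied after replication by Dnmt1, which Uhrf1 brings to newly made DNA. Lsh opens nucleosomal DNA to these enzymes, and its ATPase works in complex with Cdca7. In people, loss of DNMT3B, ZBTB24, CDCA7 or HELLS causes the immunodeficiency, centromeric instability and facial anomalies syndrome, with loss of methylation at satellite repeats. Zbtb24 is a transcription factor known to activate Cdca7. The Tet enzymes work the other way and oxidise methylcytosine.

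Levels are given in RPKM, reads per kilobase of transcript and megareads mapped, with the transcript rows of a gene summed, so they may be compared between genes. The libraries held 122.5 (KO1), 136.1 (KO2), 132.2 (WT1) and 176.6 (WT2) megareads (M reads) mapped. Of the fibroblast markers listed for a check of the cell type, 10 of 10 passed the filter on low values, with a summed level of 2787 and 3010 RPKM in KO1 and KO2 and of 2605 and 3098 RPKM in WT1 and WT2. The most abundant markers dominate this sum, and single markers differed by replicate number. Lum was at 1.27 and 105 RPKM in KO1 and KO2 and at 0.718 and 108 RPKM in WT1 and WT2. Vim went the other way, at 1198 and 782 RPKM in KO1 and KO2 and at 1307 and 879 RPKM in WT1 and WT2. The 8 macrophage markers summed to 5.69 and 64.1 RPKM in KO1 and KO2, against 46.2 and 128 RPKM in WT1 and WT2. None of the 8 was at 0 in all libraries. The endothelial, epithelial and neuronal markers summed to between 0.365 and 15.5 RPKM. Of the pluripotency markers, Nanog was at most at 0.163 RPKM and Zfp42 at most at 0.0126 RPKM. Sox2 was higher, at 0.133 and 1.83 RPKM in KO1 and KO2 and at 1.58 and 1.49 RPKM in WT1 and WT2. Pou5f1 and Dppa3 had no row shared by all 4 libraries. In bulk RNA, fewer cells of a type and less RNA per cell cannot be told apart. The libraries differ strongly by replicate number, whose files also hold different sets of rows, so KO is compared with WT within each number as well as over both. Differences were tested with limma on log2(RPKM + 0.5) in 11149 genes that reached 0.5 RPKM in at least 2 libraries, with Benjamini-Hochberg adjustment over all of them and a threshold of 0.05. This scale understates the change of low genes. Hells and 7 of its partners passed this filter. Dnmt3b and Tet1 did not, and for them values are given without a test. With genotype and replicate number as terms, limma called 7 of the 10 fibroblast markers higher in replicate 2 and 2 lower. Of all 11149 genes, 3992 were called higher and 1331 lower.

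The RNA of Hells was lower in both KO libraries than in either WT library, and did not vanish. It stood at 0.430 RPKM in KO1 and 0.550 RPKM in KO2, against 0.865 RPKM in WT1 and 1.06 RPKM in WT2. The KO libraries are the low ones for both replicate numbers and the genotypes do not overlap. A transcript length of 3019 bases turns these values into whole reads, 159 and 226 in KO1 and KO2 and 345 and 563 in WT1 and WT2. The KO level was 0.497 of WT for replicate 1 (95% exact interval 0.410 to 0.602) and 0.521 for replicate 2 (0.444 to 0.609). These intervals, like all those on read ratios here, cover counting error only and compare libraries, not genotypes. The log2 change was -0.56 (SE 0.34, n = 2 per genotype) with a limma adjusted p of 1.00, and a fit that also holds the replicate number gave an SE of 0.16 and a limma adjusted p of 0.20. Hells missed the threshold in both fits. The reads of WT1 bound its level to between 0.776 and 0.961 RPKM and those of KO2, the higher KO library, to between 0.481 and 0.626 RPKM, for counting error only. The row covers the transcript NM_008234 (mm9 chromosome 19, 39005480 to 39042767, plus strand) as a whole, and which of its exons kept the reads cannot be seen from it.

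The promoter windows of Hells, Cdca7, Uhrf1 and Dnmt1 held a word of the E2F type, and those of the other members did not. E2F transcription factors switch on the genes of DNA replication, and their binding motif was searched as the 8-base words TTTCCCGC, TTTCGCGC, TTTGCCGC and TTTGGCGC on both strands, in the RefSeq promoter windows of build GRCm38.p6 (250 bases before a transcript start to 50 after it). All 10 genes matched by symbol, with 15 windows, and 4 windows (1 for each of the 4 genes) held the motif. It was in 2.26% of all 32851 windows. Each of the words holds a CpG, and the 4 windows with the motif held between 26 and 34 CpG sites, against a median of 7 over all windows. The share among windows of like CpG content was not taken. A match is a description of the sequence and not a bound site. The 250 bases before the start are shown for the 3 genes whose match lies upstream of the start of an abundant transcript, with the motif in capitals. In the Cdca7 line the capitals nearer to the left mark CAGGACCT, the core word of the motif known for Zbtb24, and the capitals to their right the E2F word.
Hells (chr19:38930740-38930989, plus strand): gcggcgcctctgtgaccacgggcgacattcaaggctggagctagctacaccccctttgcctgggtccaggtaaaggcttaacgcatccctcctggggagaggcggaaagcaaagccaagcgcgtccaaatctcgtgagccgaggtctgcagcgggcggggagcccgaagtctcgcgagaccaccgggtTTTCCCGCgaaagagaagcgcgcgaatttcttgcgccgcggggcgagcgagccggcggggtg
Cdca7 (chr2:72475969-72476218, plus strand): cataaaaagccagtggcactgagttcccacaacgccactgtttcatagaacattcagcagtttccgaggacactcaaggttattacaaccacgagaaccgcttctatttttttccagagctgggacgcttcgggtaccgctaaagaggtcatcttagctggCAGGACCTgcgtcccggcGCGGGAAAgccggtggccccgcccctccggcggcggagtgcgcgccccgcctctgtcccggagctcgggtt
Uhrf1 (chr17:56304063-56304312, plus strand): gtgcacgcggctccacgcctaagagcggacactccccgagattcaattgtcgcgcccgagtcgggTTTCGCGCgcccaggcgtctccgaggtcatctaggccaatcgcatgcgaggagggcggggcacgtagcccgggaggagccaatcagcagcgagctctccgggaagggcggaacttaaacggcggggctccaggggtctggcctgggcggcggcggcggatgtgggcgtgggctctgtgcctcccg

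The E2F word began at base -62 from the start in Hells, at -71 in Cdca7 and at -185 in Uhrf1. The word CAGGACCT, searched on both strands, began at -89 in Cdca7 and was found in no other window of the 10 genes, against 1.99% of all windows. In Dnmt1 the E2F words (-219 and 33) lay around the start farthest downstream, which belongs to a transcript row with little of the gene's RPKM. The 300-base windows held between 2 and 57 CpG sites, against a median of 7 over all windows. The most were in Tet2 and the fewest at the most upstream start of Dnmt1.

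**Figure D1:**
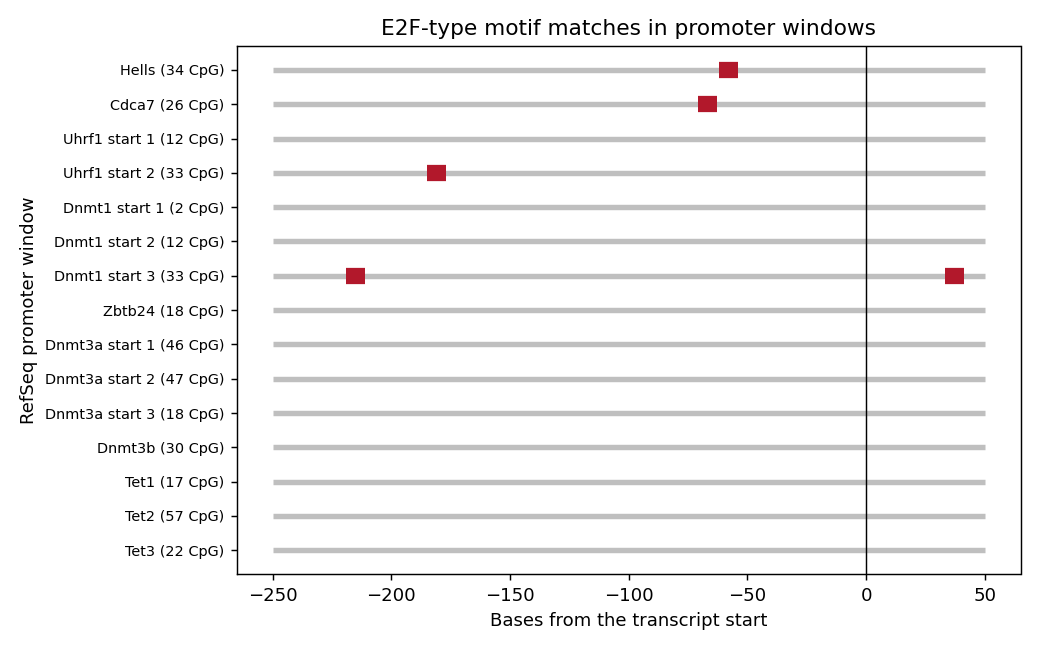
Position of E2F-type words (red) in the 15 RefSeq promoter windows of the 10 genes, in bases from the transcript start (horizontal axis), with 1 grey bar per window (vertical axis, starts numbered from upstream to downstream, CpG count of the window in brackets). Hells, Cdca7, the downstream start of Uhrf1 and the most downstream start of Dnmt1 carry a word, and the other 11 windows carry none.

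The maintenance genes Uhrf1 and Dnmt1 were lower in KO within each replicate number, and less so for replicate 2. Uhrf1 (mm9 chromosome 17, 56442760 to 56462909, plus strand) was at 1.99 RPKM in KO1 and 5.88 RPKM in KO2, against 3.66 RPKM in WT1 and 7.64 RPKM in WT2. The KO level was 0.544 of WT for replicate 1 and 0.770 for replicate 2, but KO2 lies above WT1, so the genotypes overlap. The log2 change of Uhrf1 was -0.55 (SE 0.62, n = 2 per genotype; limma adjusted p 1.00, and 0.29 in the fit that also holds the replicate number). Without KO1 this log2 change was 0.13, in a fit that the difference between the numbers enters. Dnmt1 (chromosome 9, 20711650 to 20757423 in its most abundant rows, minus strand) was at 1.16 and 2.54 RPKM in KO1 and KO2 and at 1.49 and 2.98 RPKM in WT1 and WT2. Its KO level was 0.777 of WT for replicate 1 and 0.850 for replicate 2, with a log2 change of -0.23 (SE 0.50; limma adjusted p 1.00, and 0.83 with the number as a term).

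Cdca7 and Zbtb24 were lower in KO for replicate 1 and higher for replicate 2, for Zbtb24 in replicate 1 by less than the counting error. Cdca7 (mm9 chromosome 2, 72314276 to 72324947, plus strand) was at 2.65 RPKM in KO1 and 4.97 RPKM in KO2, against 3.10 RPKM in WT1 and 4.57 RPKM in WT2. Its KO level was 0.855 of WT for replicate 1 (interval 0.776 to 0.941, from 766 reads in KO1 and 967 in WT1) and 1.09 for replicate 2 (1.02 to 1.16, from 1598 reads in KO2 and 1906 in WT2). Zbtb24 (chromosome 10, 41170202 to 41185380, plus strand) was at 3.29 and 5.50 RPKM in KO1 and KO2 and at 3.47 and 4.70 RPKM in WT1 and WT2. The KO to WT ratio of Zbtb24 was 0.948 for replicate 1 (0.875 to 1.03, from 1141 reads in KO1 and 1299 in WT1) and 1.17 for replicate 2 (1.10 to 1.24, from 2118 reads in KO2 and 2352 in WT2). Both genes therefore stood lowest in KO1 and highest in KO2. Their centred log2 profiles over the 4 libraries differed by a root mean square of 0.0818, the smallest of the 28 pairs of tested members. Among all genes tested, ranked by closeness to Cdca7, Zbtb24 came at place 355. The log2 changes were -0.04 for Cdca7 (SE 0.41) and 0.07 for Zbtb24 (SE 0.36), both with a limma adjusted p of 1.00.

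Of the de novo methyltransferases, Dnmt3a was higher in KO for replicate 1 and lower for replicate 2, and Dnmt3b was lower in KO within both numbers, for replicate 1 by less than the counting error. Dnmt3a was at 2.77 RPKM in KO1 and 7.60 RPKM in KO2, against 2.58 RPKM in WT1 and 9.04 RPKM in WT2, so KO was 1.07 of WT for replicate 1 and 0.841 for replicate 2 (log2 change -0.07, SE 0.75, limma adjusted p 1.00). Dnmt3b (mm9 chromosome 2, 153475190 to 153513466, plus strand) was low, at 0.192 and 0.433 RPKM in KO1 and KO2 and at 0.195 and 0.535 RPKM in WT1 and WT2. These values came from 97 and 243 reads in KO1 and KO2 and from 106 and 389 reads in WT1 and WT2. The KO level of Dnmt3b was 0.988 of WT for replicate 1 (interval 0.742 to 1.31) and 0.810 for replicate 2 (0.687 to 0.954).

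All 3 Tet genes were higher in KO within both numbers, which held for 22.5% of all genes tested. Neither Tet2 nor Tet3, the tested ones, was called. For replicate 2 the counting intervals of Tet1 and Tet2 hold a ratio of 1. Tet3 (mm9 chromosome 6, 83312368 to 83391672, minus strand), the most abundant of the Tet genes, was at 5.32 RPKM in KO1 and 4.91 RPKM in KO2, against 4.16 RPKM in WT1 and 4.45 RPKM in WT2, and its genotypes do not overlap. The KO to WT ratio of Tet3 was 1.28 for replicate 1 (interval 1.24 to 1.32) and 1.10 for replicate 2 (1.07 to 1.14). The log2 change of Tet3 was 0.23 (SE 0.25; limma adjusted p 1.00, and 0.82 with the number as a term). Tet3 had by far the most reads of the members whose reads were recovered, 7103 and 7294 in KO1 and KO2 and 5996 and 8563 in WT1 and WT2, hence its narrow intervals. Tet2 (chromosome 3, 133126641 to 133207354, minus strand) was at 0.719 and 1.35 RPKM in KO1 and KO2 and at 0.616 and 1.31 RPKM in WT1 and WT2, with a log2 change of 0.08 (SE 0.45; limma adjusted p 1.00). Its KO to WT ratio was 1.17 for replicate 1 (1.05 to 1.29) and 1.03 for replicate 2 (0.966 to 1.10). Tet1 (chromosome 10, 62267318 to 62342762, minus strand), best known from pluripotent and germ cells, was the lowest gene of the 10, at 0.0934 and 0.347 RPKM in KO1 and KO2 and at 0.0638 and 0.321 RPKM in WT1 and WT2. That corresponds to 160 and 660 reads in KO1 and KO2, against 118 and 793 reads in WT1 and WT2. The KO to WT ratio of Tet1 was 1.46 (1.15 to 1.87) for replicate 1 and 1.08 (0.972 to 1.20) for replicate 2.

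**Figure D2:**
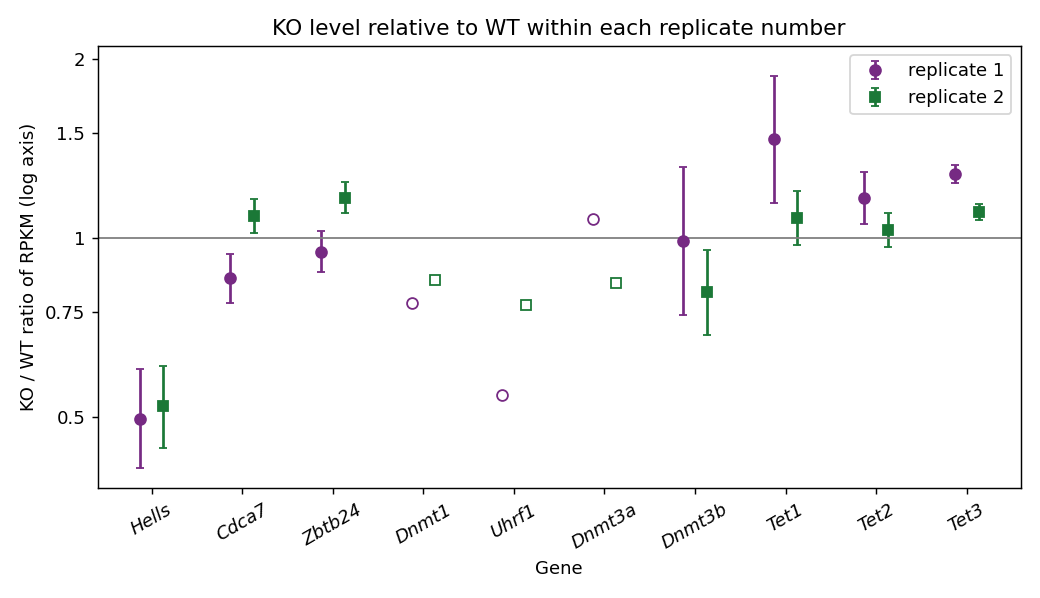
Ratio of the KO to the WT level (RPKM, log axis) of each gene within replicate 1 (purple circles) and replicate 2 (green squares). Bars are 95% exact intervals from read counts and cover counting error only; open symbols mark genes whose reads could not be recovered. Hells lies at 0.497 and 0.521, below every other gene in both replicate numbers.

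Of the 8 members tested, 0 passed the threshold in the limma fit with genotype alone, where 0 of all genes tested did (0%) and 41 genes had an unadjusted p under 0.05. With the replicate number as a term again 0 of the 8 passed, while 0.673% of all genes did (75, with 42 that rose and 33 that fell in KO). Within both numbers 3 of the 8 were lower in KO (Hells, Uhrf1 and Dnmt1) beside 31.4% of all genes, and 2 were higher (Tet2 and Tet3) beside 22.5%. For 1 of the 8, Hells, both KO libraries were below both WT libraries, which held for 7.32% of all genes, and for 1, Tet3, both were above, which held for 6.10%. The median log2 change was -0.06 over the 8 members and -0.02 over all genes. Counts this small do not set the members apart from all genes. Leaving out 1 library turned the sign of the log2 change for 6 of the 8, all but Hells and Tet3. The gap between the replicate numbers enters such a fit, and these 6 are the members called higher in replicate 2. For 3 of them (Cdca7, Zbtb24 and Dnmt3a) the sign of KO minus WT also differed between the replicate numbers. How much of the turns comes from the gap was not tested. In data simulated for KO against WT over 11149 genes, 100 had a log2 change of 1 and another 100 of 2. Each simulated gene kept its difference between the numbers, made equal in both genotypes, with noise that did not depend on its level. That setting favours the fit with the number as a term. The counts that follow therefore do not show how many real changes it would find in these libraries. The fit with genotype alone called 0 of either size. The fit with the number as a term called 90 of the 100 at size 1 and 100 of the 100 at size 2, with 11 false calls. These sizes are on the log2(RPKM + 0.5) scale of the fits. On that scale Hells, with KO at 0.497 and 0.521 of WT, changed by -0.56. Recovery of a change of that size was not tested.

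Apart from Hells and Tet3, these genes differed more between the replicate numbers than between the genotypes. The libraries KO2 and WT2 were both above KO1 and WT1 for 8 of the 10 genes, all but Hells and Tet3. Among the 8 tested this was so for 6, beside 53.3% of all genes. The same 6 rose in replicate 2 in the limma fit with genotype and number as terms, beside 35.8% of all genes that did. Dnmt3a showed the widest gap, at 7.60 and 9.04 RPKM in KO2 and WT2, against 2.77 and 2.58 RPKM in KO1 and WT1 (log2 difference 1.47, SE 0.18, limma adjusted p 8.15e-05). Uhrf1 had a log2 difference of 1.16 (limma adjusted p 0.000443) and Dnmt1 of 0.84 (limma adjusted p 0.00323). Cdca7, Tet2 and Zbtb24 followed with 0.65, 0.65 and 0.53. Hells differed by 0.18 (limma adjusted p 0.379) and Tet3 by -0.01 (limma adjusted p 0.970). Dnmt3b and Tet1, not tested, were 2.25 and 3.71 times as high in KO2 as in KO1. The median difference over all genes was 0.25, and median-ratio scaling or quantile normalization took it to 0. Relative to it Dnmt3a and Uhrf1 stayed called under both scalings. Cdca7 and Zbtb24 lost the call under both, Dnmt1 and Tet2 under quantile normalization, and Hells turned to -0.32 there.

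**Figure D3:**
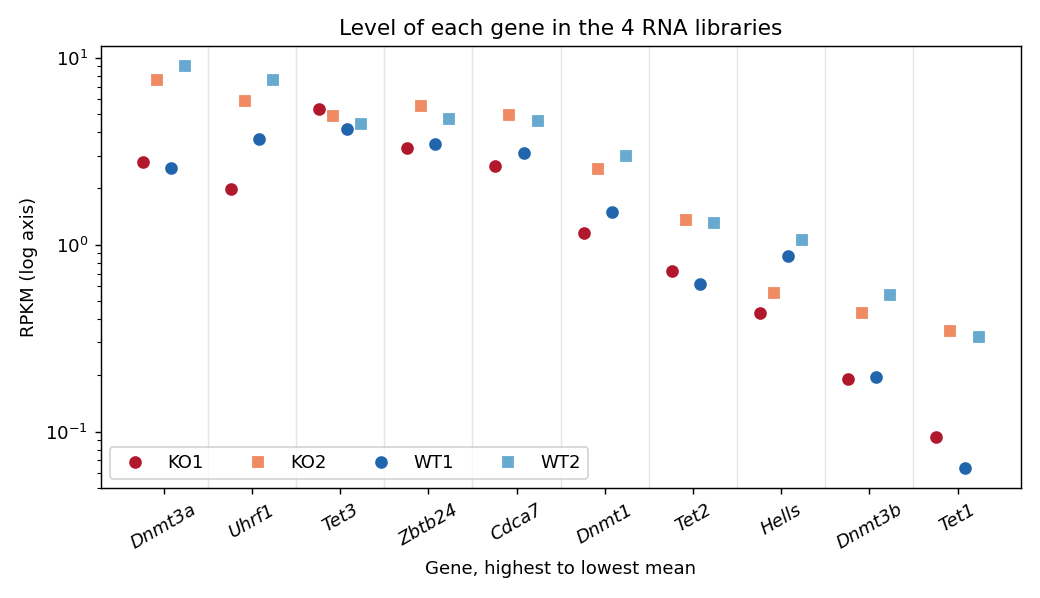
Level of each of the 10 genes in RPKM (log axis) in KO1 and KO2 (reds) and WT1 and WT2 (blues); circles are replicate 1 and squares replicate 2, and genes run from the highest to the lowest mean. Squares lie above circles for 8 genes, while the reds of Hells (0.430 and 0.550) lie below its blues (0.865 and 1.06).

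By mean over the 4 libraries the order of levels was Dnmt3a (5.50 RPKM), Uhrf1 (4.79), Tet3 (4.71), Zbtb24 (4.24), Cdca7 (3.82), Dnmt1 (2.04), Tet2 (0.998), Hells (0.725), Dnmt3b (0.339) and Tet1 (0.206). The first 5 overlap one another's ranges over the libraries, so their order is not fixed: Tet3 was the highest of the 10 in KO1 and WT1 and Dnmt3a in KO2 and WT2. Hells was 0.490 ± 0.085 RPKM in KO and 0.960 ± 0.135 RPKM in WT (SD, n = 2 each). Tet3 was 5.12 ± 0.287 RPKM in KO and 4.30 ± 0.202 RPKM in WT (SD, n = 2 each). For all the other genes the SD within a genotype exceeded the gap between the means. Uhrf1, for example, was at 3.94 ± 2.75 RPKM in KO and 5.65 ± 2.81 RPKM in WT (SD, n = 2 each).

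Below the level of the gene, the share that a transcript row had of the gene's RPKM ranged most over the libraries in Dnmt3a, by 25.3 percentage points, against 19.6 in Uhrf1, 7.1 in Dnmt1 and 0 in Dnmt3b. The long transcript, NM_007872 (mm9 chromosome 12, 3806980 to 3914443, plus strand), was at 2.75 RPKM in KO1, 6.30 in KO2, 2.55 in WT1 and 6.68 in WT2. The short one, NM_153743 (3891744 to 3914443), known as Dnmt3a2 and transcribed from an internal promoter, was at 0.0223 RPKM in KO1 and 1.29 RPKM in KO2, against 0.0349 RPKM in WT1 and 2.36 RPKM in WT2. It was thus 58.1 times as high in KO2 as in KO1 and 67.6 times as high in WT2 as in WT1, where the long transcript was 2.29 and 2.62 times as high. The short row was close to 0 in KO1 and WT1, so the size of its ratios is loosely fixed. Its share of the RPKM of Dnmt3a was 0.80% in KO1 and 17.0% in KO2, against 1.35% in WT1 and 26.1% in WT2. In KO the short row stood at 0.639 of WT for replicate 1 and 0.549 for replicate 2, and the long row at 1.08 and 0.944. The deposited rows split reads that both transcripts share by a method not given in the sources used here, and rows were not tested. The short start lies 84764 bases downstream of the long one. The 250 bases before each start are shown to set a CpG-dense promoter, with 46 CpG sites in its window, beside a less dense one with 18. Neither holds the E2F word.
Dnmt3a, long transcript (chr12:3806730-3806979, plus strand): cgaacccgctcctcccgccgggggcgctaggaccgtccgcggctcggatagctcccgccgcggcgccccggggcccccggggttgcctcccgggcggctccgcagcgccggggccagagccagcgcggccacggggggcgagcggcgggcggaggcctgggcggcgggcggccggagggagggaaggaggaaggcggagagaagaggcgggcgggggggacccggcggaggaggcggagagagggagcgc
Dnmt3a, short transcript (chr12:3891494-3891743, plus strand): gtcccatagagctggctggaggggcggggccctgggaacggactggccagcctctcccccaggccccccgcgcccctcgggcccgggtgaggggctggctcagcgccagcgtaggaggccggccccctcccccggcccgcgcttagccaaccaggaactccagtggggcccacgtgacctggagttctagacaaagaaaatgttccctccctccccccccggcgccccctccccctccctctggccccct

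Rows of the other genes say less about isoforms. The 5 rows of Dnmt3b stood in the same proportion in every library, with NM_010068 at 54.7% of the gene's RPKM and NM_001003961 at 2.81%, so they carry no information on isoform use. In Dnmt1 (mm9 chromosome 9, minus strand) the rows NM_010066 and NM_001199431, which share a start, also kept a fixed ratio and together held most of the gene's RPKM. The row NM_001199432, whose start is 6909 bases farther upstream, was at 0.0267 and 0.228 RPKM in KO1 and KO2 and at 0.140 and 0.250 RPKM in WT1 and WT2. In Uhrf1 (chromosome 17, plus strand) the rows NM_001111078 and NM_001111080, from the start whose promoter holds the E2F word, were the larger ones in every library. NM_001111078 was at 0.934 and 2.40 RPKM in KO1 and KO2, against 1.64 and 4.62 RPKM in WT1 and WT2. NM_001111080 was at 0.683 and 2.46 RPKM in KO1 and KO2, against 1.38 and 1.92 RPKM in WT1 and WT2, so its KO library was the higher one for replicate 2. The same held for the small row NM_001111079, at 0.157 and 0.513 RPKM in KO1 and KO2 and at 0.293 and 0.323 RPKM in WT1 and WT2.

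**Figure D4:**
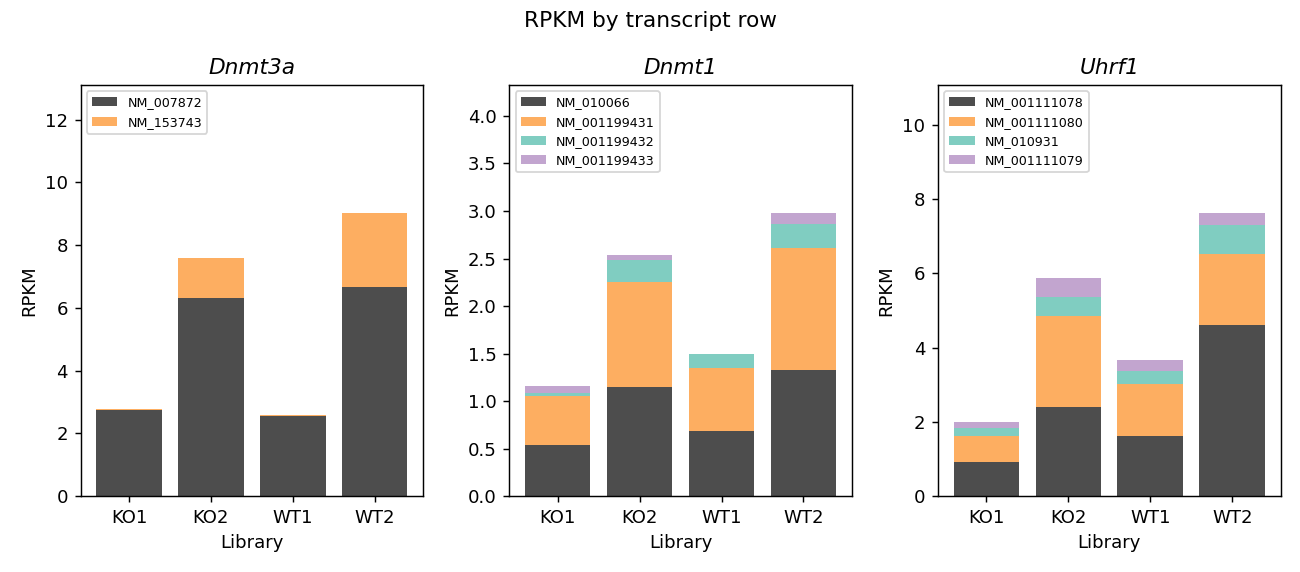
RPKM of each transcript row (stacked colours, from 0) of Dnmt3a, Dnmt1 and Uhrf1 in KO1, KO2, WT1 and WT2. The short Dnmt3a row (orange) is visible in KO2 and WT2, at 1.29 and 2.36 RPKM, and not in KO1 and WT1.

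Genes of DNA replication were lower in KO within both numbers, as Uhrf1, Dnmt1 and Hells were, and less so for replicate 2. Of the 26 listed, 21 were tested and for 20 of these KO was below WT in both pairs of libraries (31.4% of all genes), with a median log2 change of -0.42 (-0.61 for replicate 1 and -0.22 for replicate 2; -0.07 and 0.02 over all genes). None passed (0 higher and 0 lower in KO in limma, with or without the number as a term). Tk1, a thymidine kinase of S phase, was at 2.60 and 8.72 RPKM in KO1 and KO2 and at 4.85 and 12 RPKM in WT1 and WT2. Fen1, the flap endonuclease of lagging strand synthesis, was at 7.70 and 10.8 RPKM in KO1 and KO2 and at 12.6 and 13.2 RPKM in WT1 and WT2. The ribonucleotide reductase subunits Rrm1 and Rrm2, which supply deoxynucleotides, differed from each other. Rrm1 was at 6.05 and 11.9 RPKM in KO1 and KO2 and at 9.82 and 11.8 RPKM in WT1 and WT2. Rrm2 was at 11.1 and 15.7 RPKM in KO1 and KO2 and at 24.3 and 19.4 RPKM in WT1 and WT2. Of 13 tested mitosis genes 12 were lower within both numbers (again beside 31.4%), with medians of -0.80 and -0.17 and none called. Among them the kinase gene Aurka was at 4.52 and 7.42 RPKM in KO1 and KO2, against 8.91 and 10.7 RPKM in WT1 and WT2, and the exception was the proliferation marker Mki67, at 3.36 and 13.5 RPKM in KO1 and KO2 and at 7.01 and 13.4 RPKM in WT1 and WT2. In replicate 2, 16 of the 21 replication genes rose over replicate 1, as Uhrf1 and Dnmt1 did, and 0 fell, beside 35.8% of all genes that rose. The 8 macrophage markers, 7 of them tested, were also lower in KO within both numbers (31.4% of all genes). With the number as a term 1 of the 7 was called, beside 0.673% of all genes. This was Fcer1g, an Fc receptor chain, which fell (log2 change -1.43, limma adjusted p 0.0172 in that fit). Krt19, a keratin of epithelia, also fell in KO, with a log2 change of -1.73 (limma adjusted p 0.00188 in that fit). The other epithelial markers were mixed. Krt8, not tested, was also lower in KO within both numbers, at 0.0679 and 0.48 RPKM in KO1 and KO2 and at 0.176 and 2.45 RPKM in WT1 and WT2. Krt18 was at 1.97 and 0.939 RPKM in KO1 and KO2 and at 1.81 and 2.58 RPKM in WT1 and WT2 (limma adjusted p 0.73). Epcam, not tested, was higher in KO within both numbers, at 0.151 and 0.0463 RPKM in KO1 and KO2 and at 0.0551 and 0.0137 RPKM in WT1 and WT2. What part the level of replicating cells or of macrophage RNA has in the values of Hells, Uhrf1 and Dnmt1 was not tested. The log2 difference of Hells was -0.55 in replicate 1 and -0.57 in replicate 2, beside the replication medians of -0.61 and -0.22, and whether the numbers differ in this was not tested. These are differences of log2(RPKM + 0.5), a scale that shrinks a low gene such as Hells more than genes at several RPKM. Their sizes are therefore not directly comparable. As a ratio of RPKM, the KO level of Hells was 0.497 and 0.521 of WT.

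**Figure D5:**
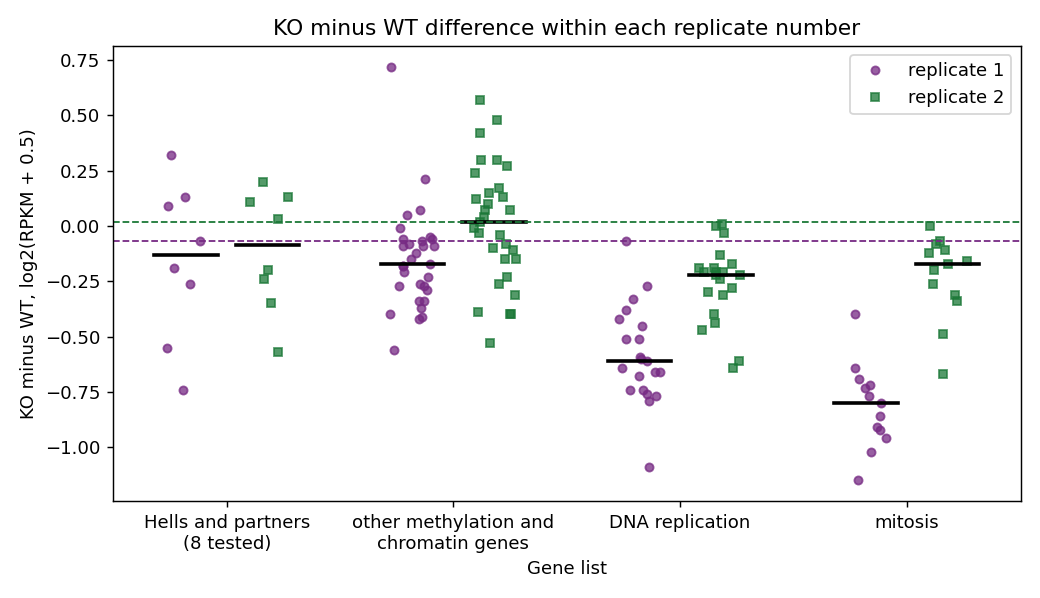
KO minus WT difference in log2(RPKM + 0.5) of single genes within replicate 1 (purple circles) and replicate 2 (green squares), for the 8 tested members and 3 gene lists; black bars are list medians and dashed lines the medians over all genes tested. Replication genes have medians of -0.61 and -0.22, and the members lie on both sides of 0.

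Among other genes that read, protect or remove methylation or act beside it, 32 of 35 had rows in all 4 libraries, and 31 were tested. limma called 0 of them in either fit. KO was below WT in both pairs of libraries for 13 of the 31 and above for 2 (31.4% and 22.5% of all genes), and the median log2 change was -0.06. Mat2a, which makes the methyl donor S-adenosylmethionine, was the most abundant, at 57.6 and 39.0 RPKM in KO1 and KO2 and at 61.1 and 36.4 RPKM in WT1 and WT2. Trim28, a corepressor of retroelements, was at 17.9 and 30.6 RPKM in KO1 and KO2, against 21.6 and 38 RPKM in WT1 and WT2. Mbd3, a subunit of the NuRD complex, was at 23.7 and 26.6 RPKM in KO1 and KO2, against 27.4 and 35.3 RPKM in WT1 and WT2. Idh1, a source of the cofactor of Tet enzymes, was at 20.8 and 41.8 RPKM in KO1 and KO2 and at 25.2 and 34.0 RPKM in WT1 and WT2. The closest relatives of the members were looked at after their values were seen. Cdca7l was at 0.676 and 2.45 RPKM in KO1 and KO2 and at 0.724 and 2.21 RPKM in WT1 and WT2. Dnmt3l, the cofactor of de novo methylation in germ cells, was below 0.05 RPKM in every library, too low to give a direction. The 2 tested genes that were higher within both numbers, named for that, were Zbtb4 and Zbtb38, zinc finger proteins that bind methylated DNA. Zbtb38 was at 6.61 and 3.08 RPKM in KO1 and KO2, against 3.82 and 1.92 RPKM in WT1 and WT2 (limma adjusted p 0.17 with the number as a term). Germline genes that DNA methylation silences stayed low: of 12 present 0 passed the filter, and the highest value was 0.501 RPKM for Brdt.

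The genes with the profile most like that of a member were found by the root mean square difference of centred log2 values over the 4 libraries. For Hells these were Hoxa4 (difference 0.0381), Pisd-ps3 and Rbm14, and 31 genes lay within 0.1 of it. Hoxa4 was at 0.625 and 0.784 RPKM in KO1 and KO2 and at 1.27 and 1.41 RPKM in WT1 and WT2. For Uhrf1 they were Rad51ap1 (0.0301), Arrb2 and Sirt4, with 17 genes within 0.1. Rad51ap1 was at 0.498 and 1.95 RPKM in KO1 and KO2 and at 1.17 and 2.81 RPKM in WT1 and WT2. For Dnmt3a they were Tmub1 (0.0208), C1qtnf4 and Bmp3. Dnmt1 had 2310039H08Rik and 1110031I02Rik among its nearest, Cdca7 had Spata24, Zfp94 and E4f1, and Zbtb24 had Trp53bp1, Srsf5 and Tspyl1. Tet2 had Pofut1, Morn4 and Iqgap2, and Tet3 had Dnalc1, Gm88 and Nrip1. These are likenesses of 4 values, which many genes reach for Cdca7, Zbtb24, Dnmt1, Tet2 and Tet3 (between 274 and 711 within 0.1).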

How the data were processed

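RNA was measured in 4 libraries of primary MEFs, 2 per genotype. Per the labels' protocols, total RNA was cleared of rRNA, poly-A selected and sequenced on a Genome Analyzer IIx. The authors deposited RPKM per RefSeq transcript for chromosomes 1 to 19; mm9 and Partek stand in the submitters' processing notes, and Cufflinks in the deposited readme. Neither the aligner nor the handling of shared reads is given in the sources used here. Groups and numbers came from the sample titles.

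Transcript rows were summed per symbol. Mapped reads were recovered from single-exon loci, where RPKM times length moves in whole reads (within 0.02 of a read for 92.5% to 96.7% of the loci used). Reads of 7 members followed from the smallest length that gave whole reads in all 4 libraries; intervals on their ratios are exact binomial ones at 95%, conditional on the sum of reads. Dnmt1, Dnmt3a and Uhrf1, with rows in changing proportions, gave no such length. limma 3.58.1 (R 4.3.3; trended, robust eBayes, two-sided) was fitted over all genes that passed the filter and tested on simulated data. The planned fit has genotype alone. The fit with the replicate number is given beside it because files and values differ by number. Nothing in the labels ties equal numbers to a shared litter, batch or day; the deviations of same-numbered libraries had a correlation of 0.875 across genes, which are not independent. P-values measure the spread between these libraries, which may be technical. Alternatives were other pseudocounts, filters, scalings, transcript choices and each library left out. Promoter sequences are RefSeq's, matched by symbol (10 of 10), and rows and windows of one gene by the spacing of their starts. All members are named. From other lists the genes named are among the called or the 4 most abundant ones, except Cdca7l, Dnmt3l, Lum, Zbtb4 and Zbtb38, chosen after their values were seen. Also named are the 3 nearest profiles per tested member, of which 1 is not reported here. The members and lists were chosen with earlier results of these data known.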

Additional observations from a re-analysis of the deposited data

How the results depend on the processing

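In the planned fit 0 of 11149 genes were called and the same count came with each other pseudocount, filter, scaling and transcript choice and with each library left out (0 to 0). The replicate block called 75 genes. With the block, a pseudocount of 0.1 gave 37 calls, of 1 gave 59, a filter of 1 RPKM gave 70, median-ratio scaling 105, quantile normalization 187, the transcript row with the highest mean 3, and no filter on low values 0. None of the tested members was called in any of these fits for KO against WT. Hells kept its direction in all of them and ran from -0.85 (pseudocount 0.1) to -0.40 (pseudocount 1); it has no value under the 1 RPKM filter. Its limma adjusted p was 0.13 at the lowest. Dnmt3a turned to 0.01 with the transcript row of the highest mean, with and without the block, since that choice leaves out the short transcript. With 1 library left out, where the gap between replicate numbers falls partly on genotype and the lone library is assumed to vary like the other genotype, the log2 change ran from -0.66 to -0.47 for Hells, -0.44 to 0.36 for Cdca7, -0.26 to 0.40 for Zbtb24, -0.67 to 0.21 for Dnmt1, -0.89 to 0.74 for Dnmt3a, -1.22 to 0.13 for Uhrf1, -0.27 to 0.43 for Tet2 and 0.17 to 0.28 for Tet3. With the block and 1 library left out no residual degree of freedom remains, so that was not run. Between the replicate numbers, Hells turned to -0.32 under quantile normalization. Median-ratio scaling left Cdca7 at 0.39 and Zbtb24 at 0.27, quantile normalization left them at 0.32 and 0.22, Dnmt1 at 0.43 and Tet2 at 0.19, none of them called. Zbtb24 was not called with no filter on low values either (limma adjusted p 0.0718).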
